A study of Homo sapiens with 27 samples.

Results

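The genes described here lie on chromosome 16, almost all of them on its short arm (16p), and the stretch was chosen by their RNA levels in MM134 LTED-D cells, where most of them were higher than in the parental MM134 line. They are the protein-coding genes whose start lies between 1.98 and 46.9 Mb on hg38 (GENCODE release 44 positions) and whose mean over all libraries was at least 5 CPM (counts scaled to a common library size). The rule left out 2 genes by name. It found 256 members among the 60619 genes of the count table. The minimum matters for 6 members, whose mean would be under 5 CPM without the libraries of some 1 group (GPRC5B, XYLT1, GP2, ITPRIPL2, ITGAL and DNASE1L2). The same interval holds 384 protein-coding genes, of which 126 had a mean under 5 CPM. Because the comparison of LTED-D with the parental cells chose the stretch, its values are given as a description and were not tested.

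RNA-Seq was made from MM134 and SUM44, both established estrogen receptor-positive lines of invasive lobular breast carcinoma, and from variants of them that had grown for months without estrogen (long-term estrogen deprivation, LTED). There are 9 groups of 3 libraries, 27 in all. In the MM134 model these are the parental line and 4 variants, LTED-D and the comparison variants LTED-E, LTED-B and LTED-A. In the SUM44 model the groups are SUM44PE, SUM44F (the same line carried in another medium, and the parent of the SUM44 variants), LTED-A and LTED-B. Parental cultures were hormone-deprived for 3 days before collection, while the LTED variants were kept in charcoal-stripped serum throughout. Each LTED variant is a clone, so what is particular to LTED-D is known from 1 clone. The 3 libraries of a group are wells of one culture, and p-values therefore measure the spread between wells only.

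Library totals ranged from 28583554 to 134882175 estimated counts. Luminal epithelial markers were present in every library (7 genes, summed 4727 to 7825 CPM), and 8 immune markers summed to 0.374 to 10.4 CPM. SUM44F replicate 1 stood apart in 6 fibroblast markers, with COL3A1 at 139 CPM against at most 0.730 in the other two SUM44F libraries, so results against SUM44F are also given without it. At a lower level, COL3A1 reached 5.98 CPM in 1 MM134 parental library (group median 0.125) and 5.03 in 1 LTED-D library (group median 0.0929). SUM44 LTED-A replicates 2 and 3 differed by less than the sampling noise (chi-square per degree of freedom 0.312, against 2.35 to 58.3 in the 26 other pairs of one group) and were counted as 1 sample, which leaves n = 2 in that group.

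Gain of 16p, often with loss of the long arm 16q, is a well-known chromosome change in estrogen receptor-positive and lobular breast cancers. When cells carry more copies of a stretch of DNA, most of the genes in it tend to give more RNA by a similar factor, whatever their function, whereas a change in a pathway touches genes on many chromosomes. RNA does not count DNA copies, and whether the DNA of this stretch changed was not tested. In bulk RNA, a higher level in all cells and a much higher level in some of the cells cannot be told apart.

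The members were higher in LTED-D than in the other MM134 cultures as a block. Scaled by TMM (trimmed mean of M-values), the 256 members together made up 21151 to 21459 CPM in the LTED-D libraries and 13168 to 13200 in the 3 parental ones, with LTED-E at 14586 to 14797, LTED-B at 13855 to 14321 and LTED-A at 14849 to 15463. The LTED-D libraries thus stood apart from all 12 others, with no overlap. The median member was 0.60 higher than in the parental cells on the log2 scale (1.51-fold), with 231 of 256 above 0 (47.6% of all genes tested were above 0), while protein-coding genes of the same minimum level on other chromosomes had a median of 0.05. By the thresholds used for all tests (fold change over 1.5 and adjusted p under 0.001), 132 members counted as higher and 4 as lower, where 9.63% of all genes tested were higher and 7.95% lower, and 13.3% and 8.85% of protein-coding genes of the same level on other chromosomes. In all 17.6% of genes passed in either direction. Nothing is read from this count, since the contrast chose the genes.

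The closer comparison is with the other MM134 variants, which went through the same deprivation. On the scale of log2(CPM + 0.5), the LTED-D mean was above the mean of LTED-A, LTED-B and LTED-E by a median of 0.50 over the members (1.42-fold), and 235 of 256 differences were above 0. Genes on other chromosomes had a median difference of 0.03. All LTED-D libraries were above all libraries of the other 4 MM134 groups in 186 of the 256 members, or 72.7%. The same held for 8.43% of all genes tested and for 13.4% of the protein-coding genes of similar level on other chromosomes. Against the parental libraries alone, 223 members (87.1%) were higher in every LTED-D library, as were 29% of all genes tested, and 2 members were lower in every LTED-D library than in all of LTED-A, LTED-B and LTED-E, against 8.99% of all genes tested. This comparison uses the same LTED-D libraries as the rule, so it too is descriptive.

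**Figure D1:**
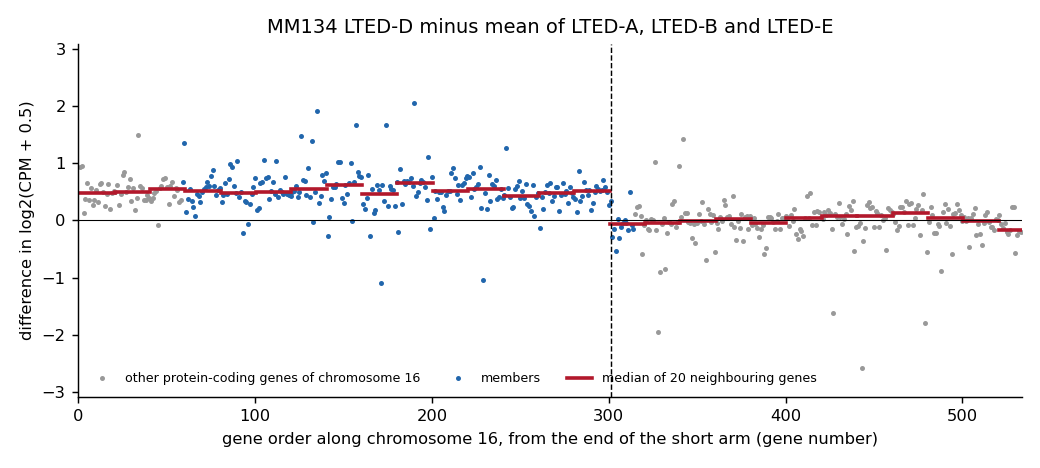
Difference in log2(CPM + 0.5) between MM134 LTED-D and the mean of LTED-A, LTED-B and LTED-E (y axis) for 533 protein-coding genes of chromosome 16 in order from the end of the short arm (x axis, gene number). Blue points are members, grey points are genes outside the interval, red lines are medians of 20 neighbouring genes and the dashed line is the edge between PYCARD and TRIM72. The red lines stay between 0.43 and 0.66 to the left of the edge and between -0.16 and 0.14 to its right.

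The higher level reached beyond the interval at one end and stopped short of it at the other. Toward the tip of the short arm, the 58 protein-coding genes before 1.98 Mb had a median difference of 0.50 from the other variants, and 57 of them were above 0. Just outside the interval, NDUFB10 (a subunit of respiratory complex I) differed by 0.53, RPS2 (a ribosomal protein) by 0.32 and TBL3 by 0.35. Just inside, GFER (a sulfhydryl oxidase of mitochondria) differed by 0.67, SYNGR3 by 1.35 and ZNF598 by 0.14. The start of the interval thus marked no change in level. At the other end, the last 3 members were MYLK3 (0.49), C16orf87 (-0.08) and GPT2 (-0.15), and the next genes outside were DNAJA2 (0.11), NETO2 (0.23) and ITFG1 (0.26). At the limit on expression, GPRC5B, DNASE1L2 and SEPTIN1 lay just inside with means of 5.18, 5.21 and 5.55 CPM and were 0.92, 0.75 and 0.49 above the parental cells. GLIS2, MMP25 and GREP1 lay just below it with 4.89, 4.53 and 4.50 CPM and differed by 0.21, -0.31 and 1.33.

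A single split of the 533 genes of chromosome 16, placed where it leaves the least absolute deviation from the medians on its sides, fell between PYCARD and TRIM72. The 301 genes before it had a median of 0.51, and the 232 genes after it had a median of -0.01. The split removed 34.2% of the absolute deviation. Against LTED-B alone or the parental cells alone it fell in the same place, and against LTED-A alone or LTED-E alone it fell between PRSS8 and PYCARD. For LTED-A, LTED-B and LTED-E against the parental cells, the best split anywhere on the chromosome removed 0.732%, 0.677% and 1.53%. The split was drawn from these data and is not a test.

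Of the 256 members, 243 lie before this edge and 13 after it. The 243 had a median difference of 0.52 (1.43-fold), with 232 above 0. The 13 had a median of -0.11, with 3 above 0, and in none of them were all LTED-D libraries above all LTED-A, LTED-B and LTED-E libraries, which held for 198 of the 243 before the edge and for 12.5% of all genes tested. The 13 are TRIM72, ITGAM, ITGAX, ARMC5, RUSF1, KRBOX5 and ZNF267 at the inner end of the short arm, and SHCBP1, VPS35, ORC6, MYLK3, C16orf87 and GPT2 on the long arm. MYLK3 had the highest difference among them, 0.49, and ITGAX the lowest, -0.54. ITGAX (the integrin alpha X chain) varied widely between wells of one culture, with 2.80, 1.68 and 67.2 CPM in the parental libraries, so its difference says little.

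The genes at the edge show the change of level gene by gene. PRSS8, which encodes the serine protease prostasin of epithelial cells, stood at 117, 112 and 120 CPM in LTED-D, at 61.2 to 62.1 in LTED-E, 81.2 to 86.2 in LTED-B and 99.0 to 109 in LTED-A. PYCARD (chr16:31201486-31203450, minus strand), the adaptor protein ASC of inflammasomes, was higher in LTED-E (171 to 177 CPM) than in LTED-D (89.7 to 93.4 CPM) and much lower in LTED-B (25.6 to 28.0 CPM). TRIM72 (chr16:31214119-31231537, plus strand), a muscle membrane repair protein, stood at 4.79, 4.39 and 4.03 CPM in LTED-D and 4.77 to 6.20 in the other variants. RUSF1 further on stood at 23.6, 22.8 and 25.2 CPM in LTED-D and 27.5 to 32.7 in the other variants, all above LTED-D. In PRSS8 all LTED-D libraries lay above those of each other variant, and in TRIM72 they did not. The edge cannot be placed more closely than between them, since PYCARD differed between groups by more than the step. PYCARD also overlaps the antisense gene PYCARD-AS1, and whether the counting used strand is not given in the sources used here.

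**Figure D2:**
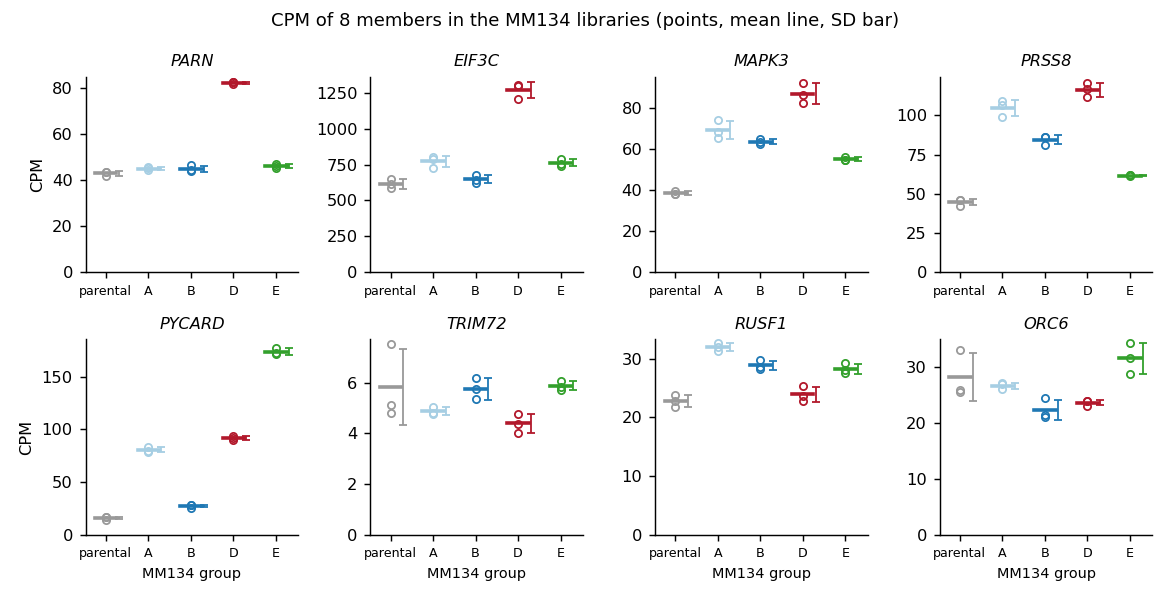
CPM (y axis, from 0) of 8 members in the 15 MM134 libraries by group (x axis), with PARN, EIF3C and MAPK3 from inside the raised stretch, PRSS8 and PYCARD from near its edge, and TRIM72, RUSF1 and ORC6 from beyond it. Points are libraries, the horizontal line is the mean and the bar beside it the SD (n = 3). LTED-D lies above all other groups in PARN, EIF3C and MAPK3 and within or below their range in TRIM72, RUSF1 and ORC6.

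The promoter sequences of PYCARD and TRIM72 are shown because the estimated edge falls between these neighbours. Both run from 250 bases before to 50 bases after the start that RefSeq (GRCh38.p14) gives the gene, and have CG dinucleotides in capitals. For PYCARD that start lies inside the span GENCODE gives, so the window is within the GENCODE gene. The PYCARD window (chr16:31202711-31203010, minus strand) holds 23 of them at 72% G and C, and the TRIM72 window (chr16:31213869-31214168, plus strand) holds 7 at 58.7%.
PYCARD: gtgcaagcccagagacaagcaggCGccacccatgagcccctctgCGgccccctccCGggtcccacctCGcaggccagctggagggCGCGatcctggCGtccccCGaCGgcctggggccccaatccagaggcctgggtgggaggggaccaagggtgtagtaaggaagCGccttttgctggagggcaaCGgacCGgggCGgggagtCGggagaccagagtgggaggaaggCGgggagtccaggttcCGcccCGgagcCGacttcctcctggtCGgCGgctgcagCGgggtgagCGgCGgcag
TRIM72: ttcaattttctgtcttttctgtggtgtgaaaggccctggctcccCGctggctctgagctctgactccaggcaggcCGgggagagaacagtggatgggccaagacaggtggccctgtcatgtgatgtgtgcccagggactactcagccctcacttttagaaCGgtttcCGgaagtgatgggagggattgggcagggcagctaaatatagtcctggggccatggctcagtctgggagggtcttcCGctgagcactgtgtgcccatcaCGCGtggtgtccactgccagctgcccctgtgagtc
A CG, which reads the same on both strands, was present in 99.6% of the 9204 promoters of protein-coding genes with a mean of 5 CPM or more. The 200 members with a promoter in the table had a median of 28, against 27 over those 9204 genes, and a median G and C share of 66.5% against 65.3%. The members were thus much like other expressed genes in both measures.

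Each LTED-D library showed the step by itself. Against the mean of LTED-A, LTED-B and LTED-E, the median over genes before the edge minus the median over genes after it was 0.54, 0.50 and 0.53 in the 3 LTED-D libraries. In the 12 other MM134 libraries the same step ran from -0.07 (LTED-E replicate 3) to 0.06 (LTED-A replicate 3). The LTED-D libraries were thus far from all others and close to each other. Over whole chromosomes, the median difference of LTED-D from the other variants was highest for chromosome 16 (0.30 over 533 genes), and the rest ran from -0.03 (chromosome 21) to 0.28 (chromosome 7), with chromosome 12 at 0.27.

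**Figure D3:**
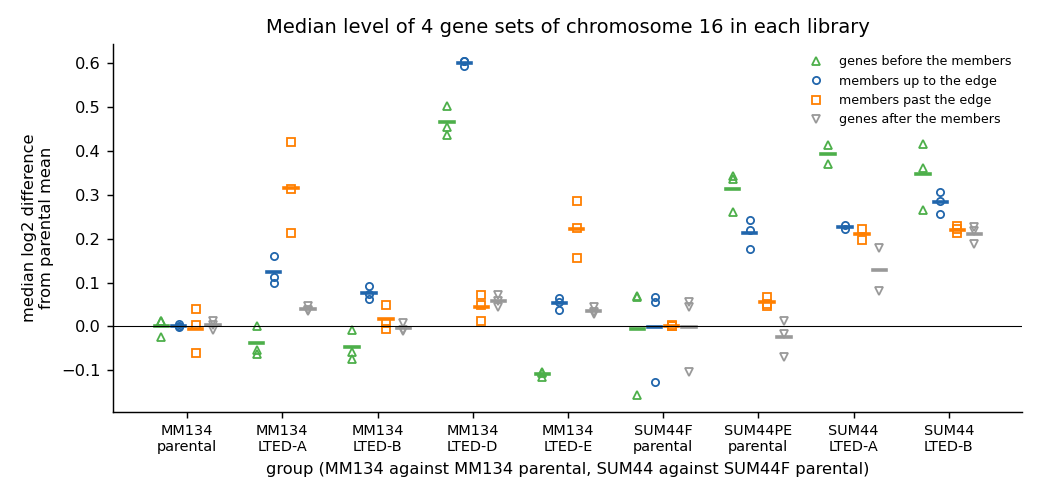
Median log2 difference from the parental mean (y axis) in each library of the 9 groups (x axis) for 4 sets of chromosome 16 genes, where symbols are libraries and lines are group means. MM134 libraries are set against MM134 parental and SUM44 libraries against SUM44F. The 3 LTED-D libraries sit at 0.59 to 0.61 for the 243 members before the edge and at 0.44 to 0.50 for the genes nearer the tip, against 0.01 to 0.07 for the 13 members past the edge.

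The difference was similar across genes of different kinds. Among the 243 members before the edge, 172 (70.8%) differed from the other variants by between 0.25 and 0.75 on the log2 scale, as did 15.1% of genes on other chromosomes, and 15 differed by more than 1. The interquartile range was 0.30, against 0.31 on other chromosomes, so the spread of the members was no wider than elsewhere. By expression level, the median was 0.45 over the 81 lowest members (5.18 to 22.2 CPM), 0.52 over the next 81 and 0.59 over the 81 highest (54.9 to 621 CPM). By exon length the 3 medians were 0.52, 0.53 and 0.51, and by promoter G and C share 0.53, 0.54 and 0.48. By position they were 0.51, 0.58 and 0.48. Genes of the interval that the rule passed over showed smaller differences with the same sign up to the edge. The median was 0.17 for 85 protein-coding genes under 5 CPM (63 above 0), 0.14 for 171 long noncoding RNA genes (122 above 0) and 0.14 for 61 pseudogenes (44 above 0). The added 0.5 CPM shrinks differences of such low genes. Past the edge, 3 of 5 protein-coding genes under 5 CPM (median 0.01), 2 of 11 long noncoding RNA genes and 3 of 9 pseudogenes were above 0.

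Members with chromatin and transcription roles moved with the stretch in LTED-D. All 17 listed members were above the other variants, by 0.24 to 0.82 with a median of 0.45. USP7, a deubiquitinase of the p53 pathway, stood at 0.68, KAT8, a histone H4 acetyltransferase, at 0.58, CREBBP, a histone acetyltransferase and coactivator, at 0.47, and SETD1A, a histone H3 methyltransferase, at 0.30. CREBBP had 61.5, 54.2 and 60.5 CPM in LTED-D and 37.2 to 46.8 CPM in the other variants, and KAT8 62.3, 68.1 and 67.3 against 42.9 to 45.2. Against the parental cells CREBBP was only 0.22 higher. The other variants were below their parent (-0.32, -0.24 and -0.20 in LTED-A, LTED-B and LTED-E, none past the thresholds), which makes up part of the 0.47. In the tested comparisons of LTED-A, LTED-B and LTED-E, the list had 1 call, MAZ, a zinc finger transcription factor, which fell by 0.82 in LTED-A. Of all genes tested, 20.3%, 15.9% and 19% were called in these 3 comparisons.

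All 14 members listed under RNA processing and translation were above the other variants too, by 0.26 to 0.85 with a median of 0.53. PARN, a poly(A)-specific ribonuclease, was at 82.1 CPM on average in LTED-D against 42.8 in the parental cells, and differed from the other variants by 0.85. RPS15A, a protein of the small ribosomal subunit, differed by 0.56, GSPT1, the release factor eRF3a, by 0.45 and RNPS1, a splicing factor, by 0.78. In LTED-A, LTED-B and LTED-E this list had 2 calls, where 20.3%, 15.9% and 19% of all genes tested were called. Both were of DCTPP1, a nucleotide pyrophosphatase that acts in neither process, which rose by 0.81 in LTED-A and 0.70 in LTED-E.

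The 10 growth signalling members differed by 0.33 to 1.04 with a median of 0.46. TSC2, which restrains mTORC1, stood at 123, 122 and 129 CPM in LTED-D and at 93.7 to 104 CPM in the other variants. MLST8, a subunit of both mTOR complexes, stood at 45.3, 43.8 and 45.1 CPM against 33.2 to 39.0. MAPK3, the kinase ERK1, stood at 86.4, 82.7 and 92.5 CPM against 54.7 to 74.3. In these genes no LTED-D library overlapped another variant. MAPK3 also rose in LTED-A (0.84) and LTED-B (0.72) against the parental cells, and IL4R, the interleukin-4 receptor chain, rose in LTED-A, LTED-B and LTED-E by 1.51, 0.71 and 1.23. ADCY9, an adenylyl cyclase, fell by 0.78 in LTED-A.

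Among 14 mitochondrial and metabolic members, 13 were above the other variants and GPT2, past the edge, was not. The median was 0.57. ALG1, a mannosyltransferase of N-glycan synthesis, differed by 1.39, QPRT, an enzyme of NAD synthesis, by 1.26, NDUFAB1, the mitochondrial acyl carrier protein, by 0.74, and UQCRC2, a core subunit of respiratory complex III, by 0.52. ALDOA, the glycolytic aldolase A, differed by 0.17, and its log2 fold change against the parental cells was 1.20 in LTED-A, 1.13 in LTED-D, 0.85 in LTED-B and 0.84 in LTED-E. COQ7, a hydroxylase of ubiquinone synthesis, fell by 0.64 in LTED-A and 0.68 in LTED-B and stood at 0.09 in LTED-D. HSD3B7, a bile acid synthesis enzyme on none of these lists, had 11.4, 11.9 and 12.2 CPM in the parental cells, 48.9 to 57.9 in LTED-A, LTED-B and LTED-E, and 75.4, 74.8 and 76.6 in LTED-D. It rose by 2.13, 2.27 and 2.15 in LTED-A, LTED-B and LTED-E and lay a further 0.49 higher in LTED-D.

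Of 11 members in DNA repair and cell division, 10 were above the other variants, with a median of 0.55. PALB2, the partner of BRCA2, had 51.3, 49.0 and 47.0 CPM in LTED-D and 32.5 to 39.5 CPM in the other variants. ERCC4, a repair endonuclease subunit, differed by 0.67 and SLX4, a scaffold for such nucleases, by 0.37. ORC6 and SHCBP1, which lie past the edge on the long arm, differed by -0.17 and 0.01. In LTED-A this list had 1 call higher and 1 lower, where 10.5% and 9.82% of all genes tested were. The lower one was KIF22, a mitotic kinesin, which fell by 0.66. LTED-B and LTED-E had no call in the list, where 15.9% and 19% of all genes were called.

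Of 14 membrane and trafficking members, 13 were above the other variants, and VPS35 of the retromer complex on the long arm (-0.04) was not. LITAF, a protein of late endosomes, had 108 to 114 CPM in LTED-D and 15.9 to 16.7 in the parental cells, with LTED-E at 37.7 to 40.5, LTED-B at 87.6 to 91.0 and LTED-A at 43.7 to 45.7. MVP, the major vault protein, had 29.4 to 31.0 CPM in the parental cells, 71.1 to 84.3 in those 3 variants and 110 to 115 in LTED-D. Both genes thus had LTED-D libraries above all others on top of a rise that the other variants shared. LITAF, MVP, CLN3 and SPNS1, the last 2 both of lysosomal membranes, and EMP2 were the 5 of 14 called higher both in LTED-A and in LTED-E, where 10.5% and 8.71% of all genes were, and LITAF, MVP and CLN3 were the 3 in LTED-B, where 8.11% were. None of the list fell.

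The 8 epithelial and secreted members were the least uniform, with differences from the other variants of -1.05 to 1.67, 7 of 8 above 0. CRYM, a thyroid hormone-binding crystallin, had 1.08, 1.36 and 1.10 CPM in the parental cells and 71.8 to 76.0 in LTED-D, with LTED-E at 58.5 to 64.2, LTED-B at 18.7 to 19.8 and LTED-A at 32.0 to 33.3. XYLT1, which starts glycosaminoglycan chains, was lower in all variants, with 34.3 to 37.5 CPM in the parental cells, 8.09 to 9.01 in LTED-D, 0.784 to 1.41 in LTED-E, 3.10 to 4.46 in LTED-B and 2.78 to 2.91 in LTED-A. NUPR1, a stress-induced chromatin protein, was 1.05 below the mean of the other variants, with 75.4 to 87.1 CPM in LTED-A and 14.3 to 14.9 in LTED-D. That mean includes LTED-A, where NUPR1 was 4.65 above the parental cells on the log2 scale. The parental level thus lay below that of LTED-D too, and NUPR1 was lower in LTED-D only relative to the other variants.

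Members before the edge that did not follow the stretch were few. ABCC6, a transporter of the ABC family, had 4.56, 4.45 and 5.07 CPM in LTED-D, against 9.31 to 12.5 in the other variants and 9.49 to 10.8 in the parental cells. With NUPR1 it was the lowest of 11 members before the edge whose difference was below 0, and ABCC6 and NUPR1 (-1.09 and -1.05) were alone below -0.5. At the other extreme, GP2, a glycoprotein of secretory granules, differed by 2.06, ABAT, the GABA transaminase, by 1.91, XYLT1 by 1.67, MRTFB, a coactivator of SRF, by 1.66 and SMIM22 by 1.48. GP2 is a member only through the LTED-D libraries, since its mean over the other groups was 4.53 CPM. Its high level in LTED-D thus follows in part from the expression minimum. MRTFB had 208, 200 and 211 CPM in LTED-D, 50.1 to 56.8 in LTED-A and LTED-E, 90.1 to 96.8 in LTED-B and 99.3 to 114 in the parental cells.

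Genes of near-identical sequence on 16p share reads, so they are given as sums and are uncertain one by one. The EIF3C and EIF3CL pair, encoding a subunit of translation initiation factor 3, summed to 832 ± 46.1 CPM in the parental cells and 1704 ± 53.1 CPM in LTED-D (SD, n = 3), which is 0.83 above the other variants on the log2 scale. The NOMO genes differed by 0.66, BOLA2 and BOLA2B by 0.49, SULT1A3 and SULT1A4 by 0.49, SLX1A and SLX1B by 0.33, and the 18 genes of the NPIP family by 0.25. Against the parental cells the NPIP sum was 0.01 higher (172 ± 1.93 and 174 ± 3.63 CPM), and the other sums were 0.94 to 1.40 higher. For comparison, 12 partners of members that lie on other chromosomes (TSC1, MTOR, EP300 and complex III subunits among them) differed by -0.22 to 0.33, with a median of 0.16, and UQCRQ alone of them passed the thresholds against the parental cells.

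LTED-A, LTED-B and LTED-E played no part in choosing the stretch other than through the expression minimum, though they share the parental libraries with the LTED-D comparison. Here the members were tested against the parental MM134 cells with edgeR. Their medians were 0.13, 0.07 and 0.06, near the 0.03, 0.01 and 0.03 of protein-coding genes on other chromosomes, and their sign depends on the scaling, since with total counts in place of TMM the members' levels lay at -0.032, -0.10 and -0.070. In LTED-A, 49 members rose and 16 fell, or 19.1% and 6.25%. Over all genes tested 10.5% were called higher and 9.82% lower, and over protein-coding genes of the same level on other chromosomes 14.7% and 11.9%. In LTED-B, 37 rose and 10 fell, where 8.11% of all genes were called higher and 7.75% lower. In LTED-E, 40 rose and 18 fell, where 8.71% were called higher and 10.3% lower. In either direction 65, 47 and 58 members were called, against 20.3%, 15.9% and 19% of all genes, and 160, 157 and 148 members had a fold change above 0, against 49.4%, 51.9% and 51.5%. On other chromosomes 10.9% and 9.49% of protein-coding genes were called higher and lower in LTED-B and 12.6% and 12.4% in LTED-E. Higher calls outnumbered lower ones among the members, and no block of neighbouring members stood out by the split described above.

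The largest changes in these variants were in a few genes, several of them called in all 3. CRYM rose by 4.78 ± 0.07, 4.01 ± 0.08 and 5.69 ± 0.07 (log2 fold change ± SE) in LTED-A, LTED-B and LTED-E, with adjusted p of 5.88e-20, 3.92e-18 and 3.49e-21. NUPR1 and SMIM22 were next in LTED-A (4.65 and 4.43), ACSM3, a fatty acid-activating enzyme of mitochondria, and GP2 in LTED-B (3.25 and 3.18), and ITGAM, the integrin alpha M chain, and PYCARD in LTED-E (5.56 and 3.46). XYLT1 had the lowest values, -3.65, -3.19 and -5.10, but it is a member only through the parental libraries (its mean over the other groups was 2.74 CPM), so a lower level in the variants follows from the expression minimum. KREMEN2, a receptor that takes part in Dickkopf inhibition of Wnt signalling, fell by 1.36, 1.51 and 1.93. PRRT2, a presynaptic membrane protein, fell by 1.99, 1.29 and 1.58, and SYNGR3, a synaptic vesicle protein, by 0.94, 0.94 and 1.67. ITGAM had 0.321 to 0.368 CPM in the parental cells, 2.90 to 7.81 in LTED-A, LTED-B and LTED-D and 16.1 to 16.8 in LTED-E. Of the 8 immune markers, LYZ also differed between these groups, with medians of 0.333 CPM in the parental cells, 9.55 in LTED-A, 1.71 in LTED-B, 0.719 in LTED-D and 2.26 in LTED-E, and 4 were under 1 CPM in every library. The part of other cells in the ITGAM values was not tested.

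The SUM44 variants were tested against SUM44F. In SUM44 LTED-A (n = 2), 31 members rose and 17 fell, where 6.4% of all genes tested were called higher and 7.29% lower. In SUM44 LTED-B, 39 rose and 17 fell, where 8.7% were called higher and 8.57% lower. The shares of members called higher, 12.1% and 15.2%, were close to the 12.5% and 17.6% of protein-coding genes of the same level on other chromosomes. Those genes were called lower in 9.68% and 10.1%, against 6.64% of members in each. Members above 0 numbered 186 and 185, against 46% and 44.7% of all genes tested. Member medians were 0.22 and 0.26, and those genes had medians of 0.10 and 0.17. Without SUM44F replicate 1 the counts of called members were 44 and 57, against 48 and 56 with it. Of all genes tested, 13.7% and 17.3% were called in either direction. SUM44F replicate 3 also stood apart, with a median of -0.08 from the SUM44F mean over protein-coding genes on other chromosomes, against 0.04 in replicates 1 and 2. With each library left out in turn, the member medians ran from 0.20 to 0.27 in LTED-A and from 0.23 to 0.31 in LTED-B. No edge like that of LTED-D was seen, and the best split removed 2.57% and 1.07% of the absolute deviation.

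Single members nonetheless differed by large factors. GPRC5B, an orphan receptor, had 24.4 to 30.2 CPM in SUM44F, 0.376 and 0.615 in SUM44 LTED-A and 1.62 to 1.96 in SUM44 LTED-B, with log2 fold changes of -5.72 and -3.91. ITPRIPL2 had -2.89 and -1.91. Both are members only through groups where they are high, since their means without the SUM44F libraries were 2.21 and 4.75 CPM, and these values are given as a description. PKMYT1, a kinase that holds CDK1 inactive, had 22.1 to 22.8 CPM in SUM44F, 75.7 and 78.3 in LTED-A and 57.7 to 65.1 in LTED-B, and rose by 1.75 and 1.41. GPT2, the mitochondrial alanine aminotransferase, had 25.9 to 30.3 CPM in SUM44F, 68.8 and 76.2 in LTED-A and 89.7 to 96.2 in LTED-B, and rose by 1.31 and 1.67. GP2 rose by 4.14 in LTED-B and had 0.27 in LTED-A, which did not pass. Of the 11 DNA repair and cell division members, 4 rose in LTED-A and 3 in LTED-B, SHCBP1, ORC6 and CCNF in both and NTHL1 in LTED-A, beside the 6.4% and 8.7% of all genes called higher. None fell, which was also so for chromatin and transcription (0 and 4 of 17 rose), RNA processing and translation (1 and 3 of 14), growth signalling (2 and 3 of 10) and mitochondria and metabolism (1 and 1 of 14). Membrane and trafficking members had 1 rise each and 2 and 3 falls, and epithelial and secreted members 1 rise each and 3 and 2 falls.

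**Figure D4:**
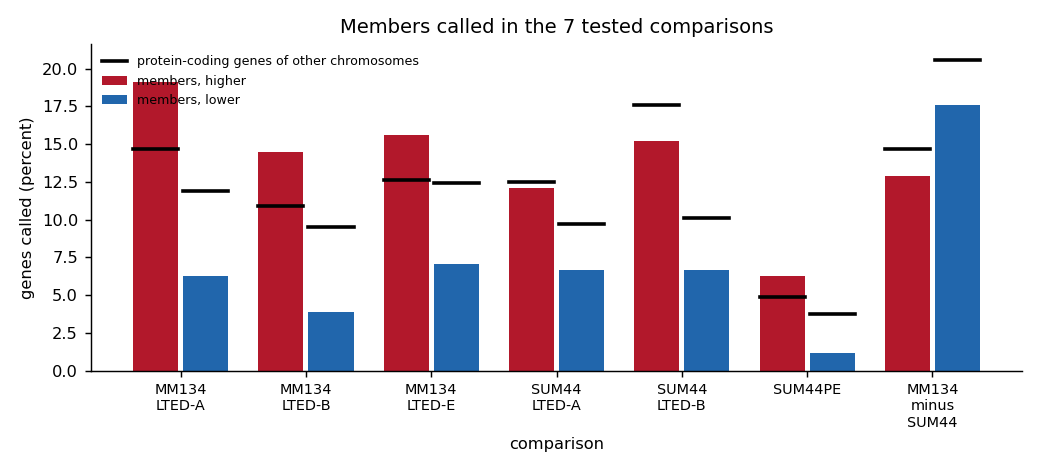
Share of the 256 members called higher (red) and lower (blue) in the 7 tested comparisons (x axis), in percent of members (y axis, from 0). Black lines are the shares among protein-coding genes of other chromosomes with the same minimum level. The members' share called higher ran from 6.25% (SUM44PE against SUM44F) to 19.1% (MM134 LTED-A).

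SUM44PE and SUM44F, the 2 parental cultures of the SUM44 model, differed along the same arm by a smaller amount. These libraries played no part in choosing the stretch other than through the expression minimum. Against the SUM44F mean, the median over the members was 0.17, 0.24 and 0.22 in the SUM44PE libraries and 0.05, 0.06 and -0.12 in the SUM44F libraries, so the groups did not overlap. The median log2 fold change of the members was 0.20 (1.15-fold), with 209 of 256 above 0, against 47.6% of all genes tested above 0 and a median of -0.03 for protein-coding genes on other chromosomes. All SUM44PE libraries were above all SUM44F libraries in 148 members (57.8%), which held for 19.1% of all genes tested and 26.3% of protein-coding genes of the same level on other chromosomes. Few single members passed the thresholds. In edgeR's test 16 rose and 3 fell, where 2.85% of all genes were called higher and 2.72% lower, 5.57% in all, and 4.86% and 3.75% of protein-coding genes of the same level on other chromosomes. The count fell to 12 without SUM44PE replicate 2 and to 11 without replicate 3. Every SUM44PE library was below every SUM44F library in 14 members, against 21% of all genes tested.

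Again the tip of the arm went with the members. The tip was also higher than SUM44F in both SUM44 variants, so its level is not particular to SUM44PE. Averaged over libraries, its median was 0.39 in LTED-A, 0.35 in LTED-B and 0.31 in SUM44PE. Protein-coding genes on other chromosomes had 0.12, 0.18 and -0.03. The 58 genes before 1.98 Mb had a median of 0.31, with 56 above 0, the 243 members before the edge had 0.21, the 13 past it 0.06, and the 219 genes after 46.9 Mb had -0.02. The best single split fell just before PYCARD and removed 14.4% of the absolute deviation, with medians of 0.25 and -0.02 on its sides. With only genes of 20 CPM or more it moved across the centromere, to between ORC6 and GPT2, so this edge is known less closely than that of LTED-D. The step at the LTED-D edge was 0.26, 0.25 and 0.26 in the SUM44PE libraries and 0.01, 0.02 and -0.03 in the SUM44F libraries. Without SUM44F replicate 1, the member median was 0.24, the called members numbered 19 as before, and the step between the groups was 0.27 in place of 0.26. GP2, RMI2 (a subunit of the complex that dissolves Holliday junctions) and GDPD3 (a lysophospholipase D) rose the most, by 1.34, 0.96 and 0.94, and ITGAM and PYCARD fell, by 0.78 and 0.70. GPRC5B had -1.54, with the limit given above. RMI2 had 18.9, 19.3 and 19.6 CPM in SUM44PE and 10.5, 9.73 and 9.46 in SUM44F.

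**Figure D5:**
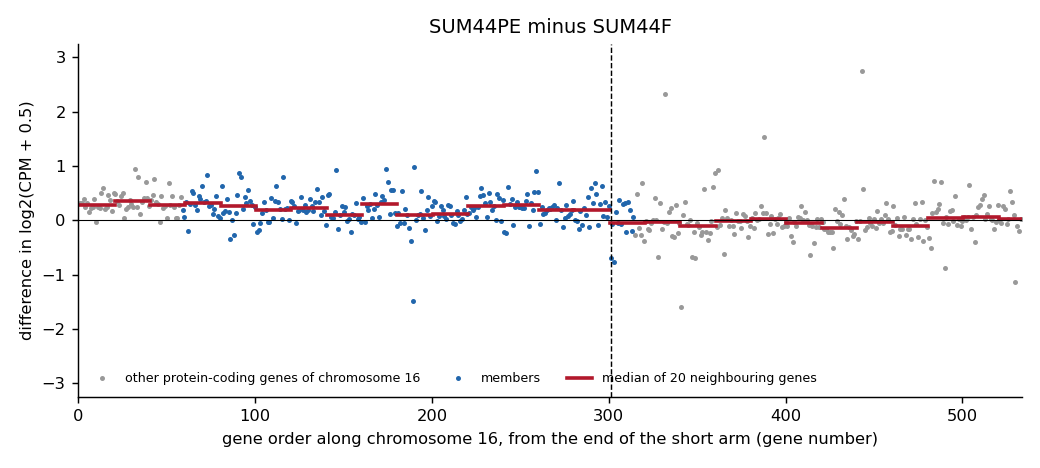
Difference in log2(CPM + 0.5) between SUM44PE and SUM44F (y axis) for the same 533 protein-coding genes in order along chromosome 16 (x axis, gene number), drawn as for LTED-D above. The medians of 20 neighbouring genes (red) lie between 0.09 and 0.35 before the dashed line and between -0.14 and 0.06 after it.

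The response to deprivation was compared between the models with an interaction test, the mean log2 fold change of MM134 LTED-A, LTED-B and LTED-E minus that of the SUM44 variants. Of the members, 33 were higher and 45 lower in this difference, where 10.5% and 10.8% of all genes tested were (21.3% in all). The difference was above 0 for 101 members, against 53.2% of all genes tested. On other chromosomes 14.7% and 20.6% of protein-coding genes of the same level were called, against 12.9% and 17.6% of members. ITGAM, CRYM and GPRC5B had the highest differences (6.01, 5.67 and 5.31) and KREMEN2, XYLT1 and CASKIN1 the lowest (-2.68, -2.20 and -2.17), where GPRC5B and XYLT1 are the genes that the expression minimum kept through 1 parental group. Membrane and trafficking members had 4 calls higher in MM134 and 1 lower, and epithelial and secreted members 6 and 2. The other 5 lists had lower calls alone, 4 in DNA repair and cell division, 3 each in chromatin and transcription, RNA processing and translation, and mitochondria and metabolism, and 2 in growth signalling. Without SUM44F replicate 1, 79 members were called in place of 78.

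The levels of the 2 parental lines were also set side by side, with no test because different lines were involved. The 243 members before the edge were at nearly the same level, SUM44F minus MM134 parental having a median of -0.10, with genes on other chromosomes at -0.09. The 13 members past the edge were higher in SUM44F by a median of 1.19, with 12 of 13 above 0, and 7 of 7 on the short arm had a median of 1.45. RUSF1, for instance, had 21.7 to 23.8 CPM in MM134 parental cells and 48.7 to 59.8 in SUM44F. Genes after 46.9 Mb had a median of 0.29. The members on the far side of the LTED-D edge thus differed between the lines by more than those on the near side, and the best split of this difference, between SETD1A and HSD3B7, removed 4.82% of the absolute deviation.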

How the data were processed

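The authors quantified reads with Salmon 0.6.0 against hg38 (Ensembl release 82) and deposited estimated counts per gene, 1 table for all 27 libraries, which were rounded to whole numbers. Symbols and positions come from GENCODE release 44. All members passed edgeR's filter on low counts in every fit. Tests were edgeR 4.0.16 quasi-likelihood tests (R 4.3.3) with TMM scaling and Benjamini-Hochberg adjustment over all genes tested. A gene was called at a fold change over 1.5 with adjusted p under 0.001. All MM134 groups shared a fit. The SUM44 variants were fitted with SUM44F alone, and SUM44PE in a fit of all SUM44 groups. The interaction came from a joint fit of both models without MM134 LTED-D and SUM44PE. SUM44 LTED-A replicates 2 and 3 were averaged. Differences between groups without a test are on log2(CPM + 0.5). The scripts were tested on simulated counts. The members, role lists and comparisons were chosen with earlier results of these data known. Genes named are those of the role lists, the 3 highest and lowest of each comparison and the neighbours of each end, while HSD3B7, ABAT, MRTFB and the genes at the edge and at the expression minimum were chosen after their values were seen. Totals of 28583554 to 134882175 set the counting precision. Alternatives were DESeq2 1.42.0, other scaling, filters and thresholds, a replicate block, and single libraries left out. Results for 1 member are not reported here.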

Additional observations from a re-analysis of the deposited data

Results flagged for a closer look

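For 7 named members the interaction test passed the threshold and the mean log2 fold changes of the 2 models had opposite signs, each beyond 1.5-fold. The test covers the difference between the models, and the signs of the means were not tested. The difference, MM134 LTED-A, LTED-B and LTED-E minus the SUM44 variants, was 6.01 for ITGAM (means of 4.36 and -1.67) and 5.67 for CRYM (4.83 and -0.88, where SUM44 LTED-A had -2.50 and SUM44 LTED-B 0.75). It was 2.35 for MVP (1.34 and -1.03) and 2.35 for LITAF (1.71 and -0.66). It was -2.68 for KREMEN2 (-1.60 and 1.05), -2.17 for CASKIN1, a scaffold protein of neurons (-1.34 and 0.80), and -2.06 for SYNGR3 (-1.18 and 0.85). All 13 members of this kind, named or not, had 10 differences above 0 and 3 below 0.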

How the results depend on the processing

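TMM scaling sets the level of all genes. With total counts in its place, protein-coding genes on other chromosomes moved by -0.14 to -0.20 on the log2 scale in the LTED groups, and the members with them, to -0.032 in LTED-A, -0.10 in LTED-B, 0.39 in LTED-D and -0.070 in LTED-E of MM134, and to 0.041 in LTED-A and 0.071 in LTED-B of SUM44. The sign in MM134 LTED-A, LTED-B and LTED-E thus depends on the scaling, while the distance from other chromosomes did not (0.53 in LTED-D under both). Less the median of all genes tested, the member medians were 0.052 in LTED-B, 0.63 in LTED-D, 0.047 in LTED-E and -0.22 in the interaction. The LTED-D median was 0.56 with a minimum of 1 CPM and 0.61 with 10 CPM, 0.585 without a filter on low counts, 0.60 with DESeq2 and 0.61 with RLE size factors. Without a minimum fold change, 149, 133 and 144 members were called in MM134 LTED-A, LTED-B and LTED-E, 33 in SUM44PE and 120 in the interaction. With a minimum of 2 the counts were 34, 21 and 29, 22 and 18 in the SUM44 variants, 2 in SUM44PE and 44 in the interaction. Shares of all genes at these other minimums were not computed, so nothing about the members is read from these counts. The following choices were made after seeing the data. The LTED-D step of 0.52 was 0.49 against LTED-A or LTED-B alone, and the SUM44PE step of 0.26 was 0.27 with genes of 20 CPM or more.

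Leaving out each library in turn gave LTED-D medians of 0.58 to 0.61, LTED-E medians of 0.066 to 0.085, 11 to 21 called members in SUM44PE (12 without SUM44PE replicate 2 and 11 without replicate 3), interaction medians of -0.20 to -0.10 (-0.10 without SUM44F replicate 3), LTED-D steps of 0.51 to 0.53 and SUM44PE steps of 0.24 to 0.28. In the 377 alternatives for counts, medians, levels and steps, 40 moved, counts by more than 1.5-fold and the others by more than the spread. A reversal was scored only for steps and for medians beyond 1.5-fold, and only the LTED-D median was that large. None was found. Smaller medians and levels could change sign unscored, as the levels in MM134 LTED-A, LTED-B and LTED-E did with total counts. In 3644 alternatives for single named genes, 120 lost the call and none changed sign.

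The replicate numbers did not pair the samples. Same-numbered libraries of different groups had correlated deviations over 0.1 in 8 of 30 MM134 pairs and 4 of 15 SUM44 pairs, and 5 of 15 and 5 of 11 libraries correlated best with their own number. With the number as a block, 65, 46 and 58 members were called in MM134 LTED-A, LTED-B and LTED-E, 35 and 54 in the SUM44 variants, 18 in SUM44PE and 74 in the interaction. Shares of all genes with the block were not computed, so these counts only show how far the calls depend on it.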

Other observations

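Some other chromosomes also had shifted medians in the same comparisons. Where along these chromosomes the genes differed was not examined. In LTED-D, the 519 protein-coding genes of chromosome 7 with a mean of 5 CPM or more had a median difference from the other MM134 variants of 0.28 (86.3% above 0), and the 601 genes of chromosome 12 had 0.27 (86.7% above 0), smaller than the 0.51 of the genes before the edge on chromosome 16. In SUM44PE against SUM44F, chromosome 22 had the highest median, 0.47 over 283 genes (92.6% above 0), followed by chromosome 14 at 0.19 and chromosome 15 at 0.13, and chromosome 17 had the lowest, -0.15. Whether the DNA content of these chromosomes differed was not tested.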
